A study of Drosophila melanogaster with 2 samples.

Results

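The trithorax group genes described here are tara, trx, ash1, ash2, brm, mor, osa and kis, 8 of 18164 annotated Drosophila melanogaster genes. The data locate the protein of CG4707 on the genome in whole embryos. The 8 genes were chosen by name as a functional group, but with region values in view, since tara was included because its intron holds the peak of rank 2 in the whole list. Their region signals are therefore given as a description, with no test. A region was assigned to a gene when its summit, the position of highest signal, lay in the gene body or within 2 kb of it.

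The study is a chromatin immunoprecipitation with sequencing (ChIP-seq) of a transgenic fly line that stably expresses CG4707 with GFP fused to its C terminus. The series has 1 group, with biological replicates 2 and 3 from mixed-sex embryos aged 0 to 14 h, and no second strain, treatment or time. Both libraries are called an input control in a free-text field of the labels, whereas the title, assay title and antibody label name a transcription factor ChIP, and they were read as such. The embryos contain many cell types and stages, and the labels do not say in which cells the fusion is made or whether the native CG4707 gene is intact. Because regions, not reads, were used, the depth is unknown, and a binding site in few cells cannot be told apart from weak binding in many. In the pooled data 30000 regions were listed, and the 11.6% of highest signal passed the authors' reproducibility threshold and are called peaks here. Signal is the authors' peak score, in an undescribed unit, so that ranks (rank 1 is the highest signal) are compared between lists and signals only within a list.

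Trithorax group proteins keep developmental genes such as the Hox genes active, and oppose the Polycomb group, which keeps them silent. Trx and Ash1 are histone methyltransferases, and Ash2 is a subunit of the COMPASS methyltransferase complexes. Brm is the ATPase of the Brahma (SWI/SNF) chromatin remodeling complex, Mor a core subunit of it, and Osa the subunit that defines the BAP form of the complex. Kis is a chromodomain helicase of the CHD family. Tara is a nuclear cofactor related to the mammalian SERTAD proteins, and was placed in the group by its genetic interactions.

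The bases within 50 bp of the summit of the highest peak of each gene with a peak are printed to show what sequence the strongest signal lay on. Each is the plus strand of the Release 6 genome (dm6), and capitals mark the 6-mer ACAGTG or its complement, which was present within 100 bp of the summit at 26.5% of all peaks and 11.7% of the regions below the threshold.
tara highest peak (chr3R:16235749-16235849): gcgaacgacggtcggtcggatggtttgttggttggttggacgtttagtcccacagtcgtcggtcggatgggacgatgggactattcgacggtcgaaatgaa
ash1 peak (chr3L:19590568-19590668): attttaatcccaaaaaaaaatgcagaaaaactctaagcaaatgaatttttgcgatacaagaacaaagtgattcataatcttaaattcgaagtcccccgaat
kis highest peak (chr2L:223553-223653): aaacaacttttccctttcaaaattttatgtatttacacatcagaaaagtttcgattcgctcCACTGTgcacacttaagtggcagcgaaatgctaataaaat
trx highest peak (chr3R:14283842-14283942): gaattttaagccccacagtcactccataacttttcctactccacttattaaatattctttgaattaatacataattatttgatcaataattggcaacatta
osa highest peak (chr3R:17704355-17704455): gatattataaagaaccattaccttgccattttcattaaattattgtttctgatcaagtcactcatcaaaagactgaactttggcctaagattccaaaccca
brm peak (chr3L:15982949-15983049): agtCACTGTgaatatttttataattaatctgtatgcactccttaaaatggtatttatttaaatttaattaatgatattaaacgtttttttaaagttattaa
mor higher peak (chr3R:15974410-15974510): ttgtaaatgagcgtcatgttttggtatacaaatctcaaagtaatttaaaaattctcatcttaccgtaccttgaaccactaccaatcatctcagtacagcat
The 6-mer was inside these windows at kis and brm only. At mor it lay farther from the summit, while at tara, ash1, trx and osa, which include the 2 highest peaks of the group, it was absent within 100 bp of these summits.

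Of the 8 genes, 7 had at least 1 peak, against 22.9% of all genes and 24.5% of 13945 protein-coding genes. These values were in view when the genes were chosen, and nothing is read from it. It also depends on gene length. Protein-coding genes up to 5000 bp long, the class of ash2 and mor, had a peak in 18.2% of cases, and those over 5000 and up to 10000 bp, the class of ash1, in 34.3%. In the class over 10000 and up to 20000 bp, which holds brm, the share was 46.5%. Over 20000 and up to 50000 bp, where tara, trx, osa and kis lie, it was 50.8%. All 4 of these long genes had peaks inside their bodies, whereas the shares above also count summits within 2 kb of the body. The peaks of ash1, brm and mor lay outside the bodies of these genes, and ash2 had none.

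In all, 24 peaks and 99 pooled regions lay at the 8 genes, and no peak was shared by a pair of them. The median signal of the 24 peaks was 244, against 182 for all peaks. Of the 24, 3 were among the 100 highest peaks of the list and 8 among the 500 highest. The 3 were those at tara, ash1 and kis. Region values, that of the highest tara peak among them, were in view when the genes were chosen, so these values only describe the genes.

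**Figure D1:**
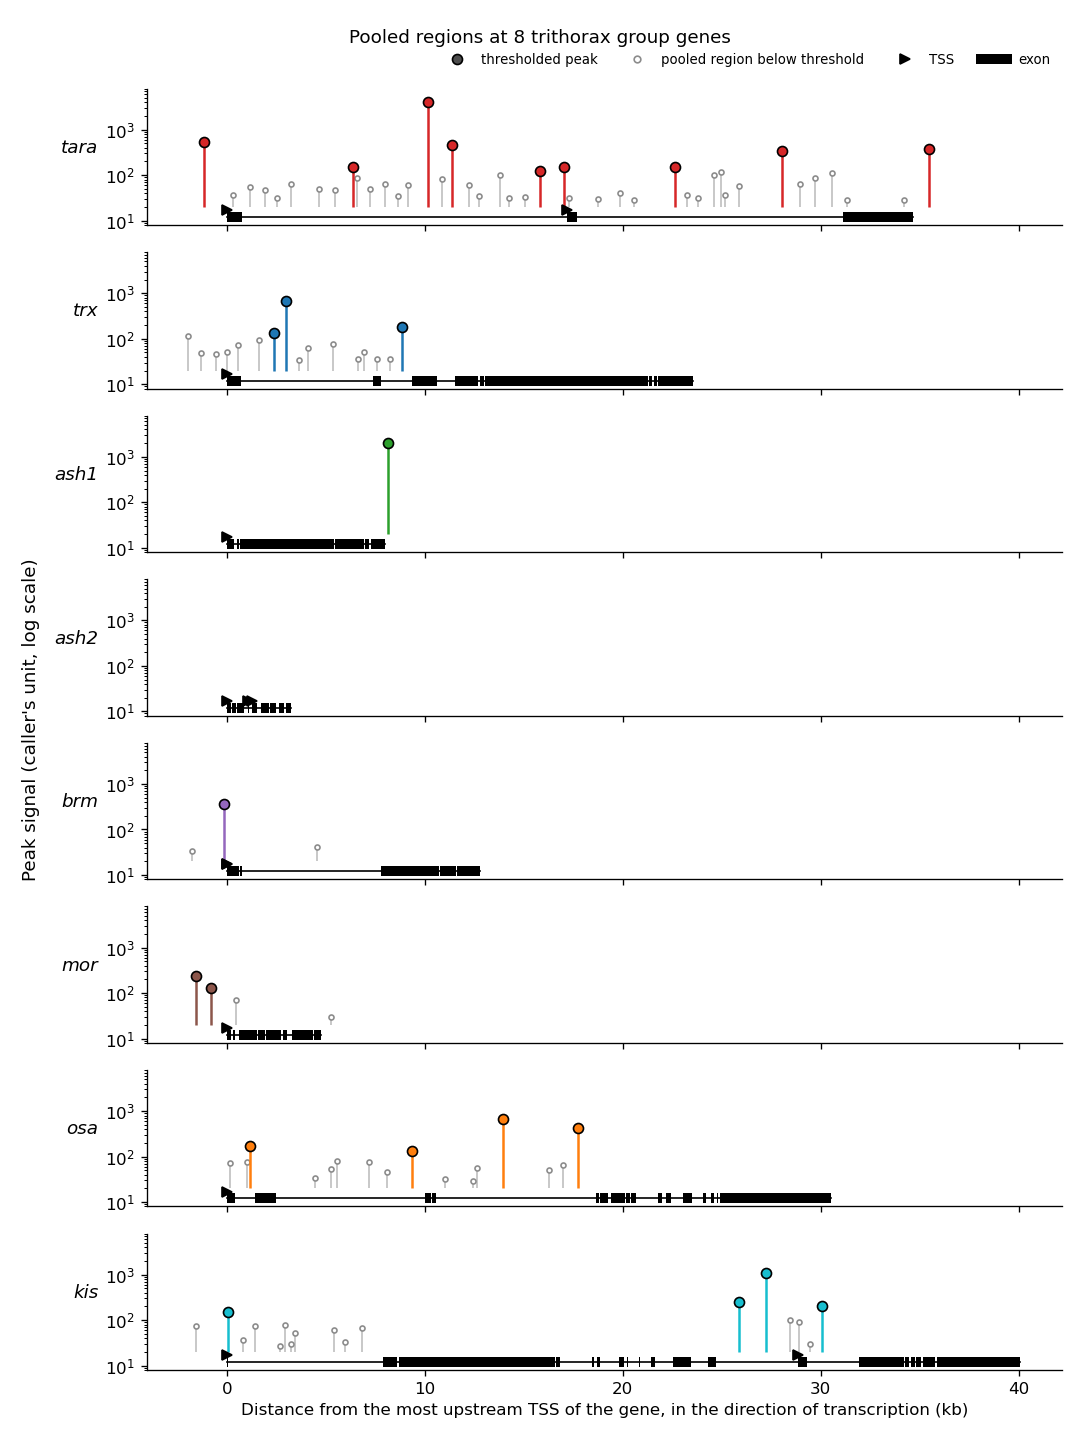
Pooled regions at the 8 trithorax group genes, by distance of the summit from the most upstream TSS (kb, x axis) and peak signal in the caller's unit (log scale, y axis). Filled points are thresholded peaks, open points pooled regions below the threshold, arrowheads TSSs and black bars exons. The 9 peaks of tara run from upstream of the gene to past its 3′ end, the 1 peak of ash1 lies past the 3′ end of ash1, and ash2 has no region.

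The tara gene (FBgn0040071, chr3R:16225651-16260329, plus strand) carried 9 peaks in the 38.7 kb of its window. That is 2.33 peaks per 10 kb, against 0.259 per 10 kb over the 6 chromosome arms. Only 12 of 13945 protein-coding genes, tara among them, had 9 or more peaks, and the highest count was 15. Among the 706 protein-coding genes over 20000 and up to 50000 bp long, 3 had as many, tara included. Pooled regions were also dense, with 42 in the window or 10.9 per 10 kb, against 2.24 per 10 kb over the arms, and 2 of the 706 genes, tara included, had as many.

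The gene has 2 annotated TSSs, and its transcripts have 2 exons joined by 1 long intron. The highest peak (chr3R:16235466-16236133, signal 3971, rank 2) lay in the intron between the TSSs, 7017 bp upstream of the internal one. Its signal was 1716 (rank 3) in replicate 2 and 2271 (rank 2) in replicate 3, with summits 8 bp and 0 bp from the pooled summit. The next peak inside the intron, 1217 bp farther on at chr3R:16236762-16237194, had a signal of 456 (rank 345). It ranked 478 in replicate 2 and 273 in replicate 3. Both replicates thus gave these neighbouring peaks very unequal ranks, in the same order.

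Of the other 7 tara peaks, 2 lay outside the gene body. One, with a signal of 539 (rank 248), was 1155 bp upstream of the gene, and ranked 214 in replicate 2 and 299 in replicate 3. It was nearer to the TSS of the non-coding RNA gene lncRNA:CR45643, at 896 bp downstream of it. One, with a signal of 383 (rank 511), was 779 bp past the 3′ end, between tara and bor, and ranked 526 in replicate 2 and 554 in replicate 3. The remaining 5 were intronic. The highest of these had a signal of 334 (rank 661) and ranked 409 in replicate 2 and 1092 in replicate 3. The others ranked between 2270 and 3259.

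At the internal tara TSS, a peak of rank 2370 (signal 150) had its summit 117 bp upstream, and ranked 1839 in replicate 2 and 2756 in replicate 3. At the upstream TSS no peak was found, and the highest pooled region within 500 bp of it ranked 18938 (signal 37.1). Of the 2 TSSs the internal one thus had the higher region, though well below the highest intronic peak. The weakest tara peak, rank 3259, ranked 1813 in replicate 2 and 6653 in replicate 3, the widest gap between replicates among the 23 peaks matched in both. The peak of rank 2406 had no replicate 3 summit within 100 bp, and the nearest one, just beyond that limit, ranked 2827.

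**Figure D2:**
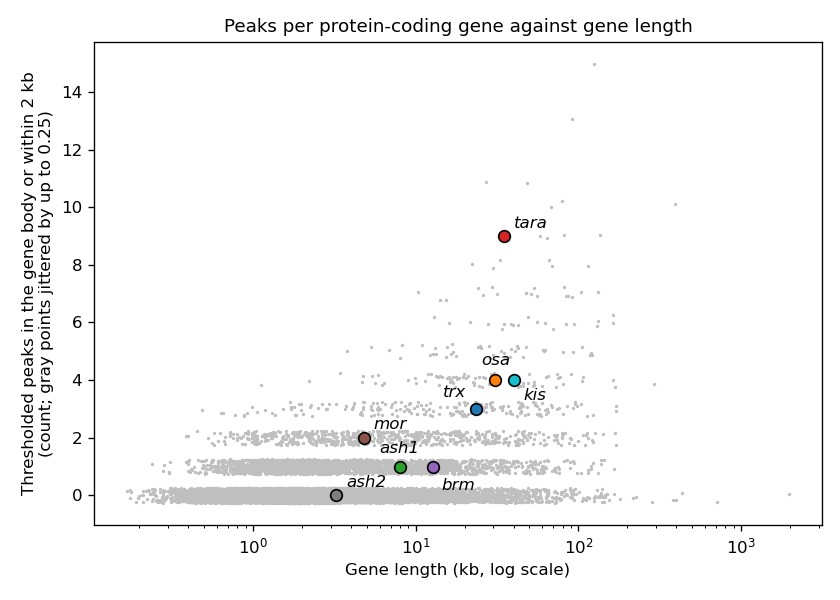
Number of thresholded peaks per protein-coding gene (y axis, count) against gene length (kb, log scale, x axis). Gray points are the 13945 protein-coding genes, jittered upward or downward, and colored points the 8 trithorax group genes. With 9 peaks, tara stands above nearly all genes of its length, while osa and kis have 4, trx 3, mor 2, ash1 and brm 1 and ash2 none.

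The methyltransferase gene trx (FBgn0003862, chr3R:14263358-14286903, minus strand) had 3 peaks, all in its first 2 introns. The highest (chr3R:14283741-14284017, signal 683, rank 160) lay in intron 1, 3011 bp downstream of the single annotated TSS. Its signal was 356 (rank 137) in replicate 2 and 335 (rank 183) in replicate 3. A second peak in intron 1, only 616 bp away, had a signal of 132 (rank 2936), and another, in intron 2, one of 180 (rank 1767). Both ranked well below the highest trx peak in each replicate, at 3484 and 1437 in replicate 2 and 2699 and 2760 in replicate 3. The trx TSS itself had no peak, and the highest pooled region within 500 bp of it ranked 11577 (signal 52.0). All 16 pooled regions of the window lay at or before the peak 8835 bp downstream of the TSS, and the remaining 3′ part of the gene had none.

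The ash1 gene (FBgn0005386, chr3L:19590773-19598755, minus strand) was assigned the highest peak of the group after that of tara. This peak (chr3L:19590451-19590797, signal 2055, rank 12) was the only pooled region in its window. Its signal was 1027 (rank 8) in replicate 2 and 1032 (rank 17) in replicate 3, with summits 2 bp and 5 bp from the pooled one. It was not at the ash1 promoter: the summit lay 155 bp past the 3′ end of ash1 and 8137 bp from its TSS. The nearest TSS was that of CG14100, on the same strand, 94 bp away, and the peak stood just upstream of it. No pooled region lay within 2 kb of the ash1 TSS. The replicate 3 region nearest to the gene body, at 111 bp, ranked only 18908.

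At ash2 (FBgn0000139, chr3R:24650125-24653376, plus strand) no region was listed in the window in the pooled data or in replicate 2 or 3. The nearest peak was 77451 bp away, and the nearest pooled region, of rank 12316, at 8853 bp. The window of ash2 is short, and 34.8% of the 10463 protein-coding genes up to 5000 bp long likewise had no pooled region. Of trx, ash1 and ash2, trx was thus the only one with a peak in its body.

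Among the genes of the Brahma complex, brm (FBgn0000212, chr3L:15970082-15982869, minus strand) had 1 peak (chr3L:15982893-15983109, signal 355, rank 599). Its summit lay 130 bp upstream of a brm TSS, in the short gap to Arl1, a small GTPase gene transcribed the opposite way, so that it was within 500 bp of the TSSs of both. The signal was 175 (rank 585) in replicate 2 and 189 (rank 556) in replicate 3. The replicates thus placed it at nearly the same rank. Inside the brm body the only pooled region ranked 15827.

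The core subunit gene mor (FBgn0002783, chr3R:15968134-15972913, minus strand) had 2 peaks, both upstream of it and both inside the neighbouring gene Hel89B, which runs the other way. The higher (chr3R:15974270-15974649, signal 233, rank 1174) was 1547 bp upstream of the mor TSS and 1162 bp downstream of the Hel89B TSS. It ranked 1587 in replicate 2 and 1107 in replicate 3. The other (signal 126, rank 3142) was 811 bp upstream of mor and 426 bp downstream of the Hel89B TSS, and ranked 4591 in replicate 2 and 2714 in replicate 3. By distance, both peaks were nearer to the start of Hel89B, a helicase gene, than to that of mor.

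The osa gene (FBgn0261885, chr3R:17687818-17718350, minus strand) had 4 peaks, all intronic. The highest (chr3R:17704262-17704542, signal 669, rank 166) lay in intron 4 of the longest transcript, 13945 bp downstream of the TSS. Its signal was 336 (rank 155) in replicate 2 and 340 (rank 178) in replicate 3, so that it matched the highest trx peak closely in rank. The second (signal 421, rank 429), 3808 bp farther into the same intron, ranked 312 in replicate 2 and 630 in replicate 3. Both lay at non-coding RNA genes nested in osa on the opposite strand, the first inside lncRNA:CR46035 and the second 144 bp upstream of the TSS of lncRNA:CR46036. The remaining peaks ranked 1925, in intron 1 at 1196 bp from the TSS, and 2868, in intron 2. At the osa TSS the highest pooled region within 500 bp ranked 7416 (signal 70.9), below the threshold.

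The kis gene (FBgn0266557, chr2L:210735-250823, minus strand) has 2 annotated TSSs, at the start of the gene and inside it. Of its 4 peaks, 3 lay round the internal TSS and 1 at the main one. The highest (chr2L:223339-223784, signal 1084, rank 71) lay in intron 12 of the longest transcript, 1641 bp upstream of the internal TSS. Its signal was 467 (rank 84) in replicate 2 and 614 (rank 65) in replicate 3. It was also 84 bp downstream of the TSS of lncRNA:CR44222, a non-coding RNA gene nested in kis on the opposite strand. In the same intron lay peaks of signal 256 (rank 1002) and 203 (rank 1458), on either side of the internal TSS at 2966 bp upstream and 1225 bp downstream. They ranked 1289 and 1110 in replicate 2 and 827 and 2234 in replicate 3. Both were nearer to the TSS of a nested non-coding RNA gene than to the internal kis TSS. These were lncRNA:CR44222, at 1409 bp, for the peak of rank 1002 and lncRNA:CR44220, at 1086 bp, for that of rank 1458. The main kis TSS had a weaker peak (signal 154, rank 2268) with its summit 46 bp downstream, which ranked 2287 in replicate 2 and 2905 in replicate 3. The space of 25849 bp between this peak and the group at the internal TSS held no peak.

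The peaks of these genes differed in position, from mostly intronic at the long genes to upstream or downstream of the body at brm, mor and ash1. Of the 24 summits, 3 lay within 500 bp of a TSS of the member gene itself, at tara, brm and kis. Thus 3 of 8 genes had a peak at their own start, against 10.5% of all 18164 annotated genes. That share includes non-coding genes, and was not matched for gene length or for the number of TSSs per gene. Counting the TSS of any gene, 7 of 24 summits (29.2%) lay within 500 bp, against 45.2% (1569) of all peaks. No summit lay in a coding exon. At the 4 long genes, 13 of 20 summits (65.0%) were intronic and over 500 bp from any TSS. By the same assignment, this was so for 448 of 798 peaks (56.1%) at protein-coding genes over 20000 and up to 50000 bp long. No test was made of these shares, because they come from the regions that the assignment itself selected. In tara, trx, osa and kis the highest peak lay 1641 bp or more from every TSS of the gene. In each it had a higher signal than any region at the gene's own TSSs. How often this holds at other long genes with peaks was not counted, so it is not read as a trait of these genes.

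The replicates were alike at the strong peaks of these genes, as they were at the strong peaks of the whole list. All 24 peaks had a replicate 2 summit within 100 bp, at a median distance of 8 bp, and 23 had a replicate 3 summit, at a median of 9 bp. Counting as many of the highest regions of each replicate as there are peaks, 21 of the 24 were among them in replicate 2, 21 in replicate 3, and 18 (75.0%) in both, against 71.1% of all peaks. The peaks were also split into 4 equal groups by pooled signal. All 11 member peaks in the highest group and all 3 in the next were among these highest regions in both replicates. Over all peaks the shares in these groups were nearly as high, at 97.9% and 95.4%. In the following groups 4 of 6 and 0 of 4 member peaks were, where the shares over all peaks were 70.8% and 20.2%. The pooled list holds the reads of both replicates, so these shares are not independent of it. The larger rank was a median of 1.5 times the smaller one over the 23 peaks, and 1.44 times over 3336 peaks of the whole list. Neither replicate was higher throughout, with 13 peaks of better rank in replicate 2 and 10 in replicate 3.

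**Figure D3:**
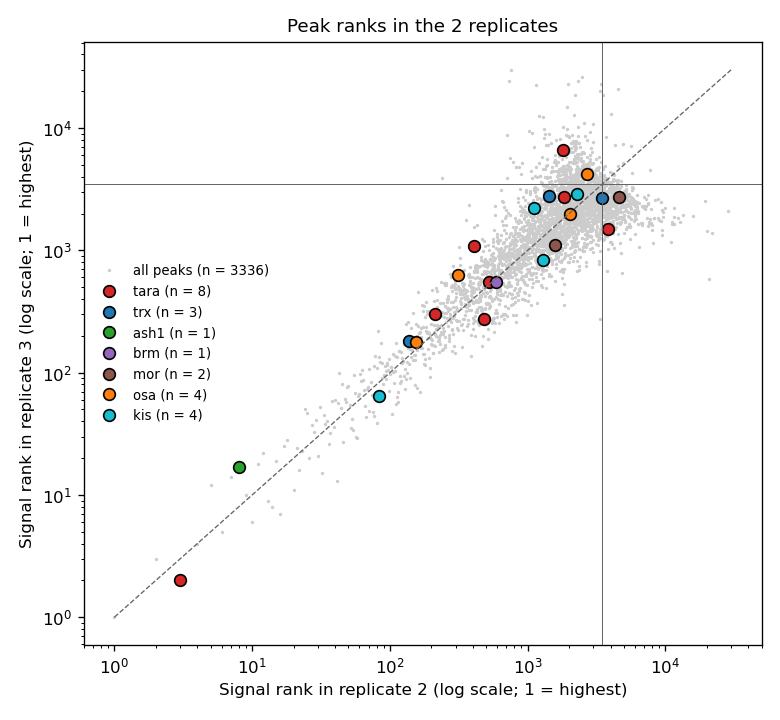
Rank of each peak's signal in replicate 2 (x axis) and in replicate 3 (y axis), both on log scales with 1 the highest. Gray points are the 3336 peaks that both replicates match to within 100 bp, colored points the 23 of them at the trithorax group genes, the dashed line equal ranks and the thin lines the rank equal to the number of peaks. The highest peaks of tara, kis, trx and osa lie near the dashed line, that of ash1 (ranks 8 and 17) lies above it, and the weakest peaks are the most scattered.

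Below the threshold, 75 pooled regions lay at the genes, of which 33 were at tara, 13 each at trx and kis, 12 at osa and 2 each at brm and mor. The highest of them ranked 3493 at tara, 3522 at trx, 4458 at kis, 6200 at osa, 7308 at mor and 15827 at brm. Just inside the threshold were peaks at trx (rank 2936), mor (rank 3142) and tara (rank 3259), with signals of 132, 126 and 123. Just outside it were regions at tara (rank 3493), trx (rank 3522) and tara (rank 3743), with signals of 117, 117 and 112. In the single replicates, 5 regions of replicate 2 and 4 of replicate 3 at these genes were as highly placed without a peak summit within 100 bp. The highest of them was in the tara intron, between the peaks of rank 2 and rank 345, at rank 1366 in replicate 3. It had no summit within 100 bp in replicate 2.

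The 6-mer ACAGTG was searched for within 100 bp of the summits, on either strand. It is known from earlier results of these same data, so its frequency at these genes is a description. At the 24 peaks it occurred at 9 (37.5%), against 26.5% of all peaks and 11.7% of the 26075 sub-threshold pooled regions clear of any peak. The 10 sites at these 9 peaks are printed with 10 bases on each side, in the orientation that reads ACAGTG, to show how far the match extends. Capitals mark the 6-mer.
kis rank 71 (chr2L:223604-223629, minus strand): ttaagtgtgcACAGTGgagcgaatcg
tara rank 345 (chr3R:16237028-16237053, minus strand): cattttatgtACAGTGtgcacaggcg
brm rank 599 (chr3L:15982942-15982967, minus strand): aaaaatattcACAGTGacttgtgctg
kis rank 1002 (chr2L:224908-224933, plus strand): gcccgccaacACAGTGggattgctgc
mor rank 1174 (chr3R:15974515-15974540, minus strand): attgtagtgcACAGTGagaaattcgc
tara rank 2270 (chr3R:16248278-16248303, plus strand): aatgggaggtACAGTGggtggcatag
tara rank 2406 (chr3R:16231922-16231947, plus strand): gataaacggcACAGTGgtcgctcgca
osa rank 2868 (chr3R:17709029-17709054, minus strand): cacacacgccACAGTGggcgccaaat
trx rank 2936 (chr3R:14284484-14284509, minus strand): acctttatttACAGTGcgttttgaga
trx rank 2936 (chr3R:14284572-14284597, plus strand): aatcacacctACAGTGatcgctcgct
The sites lay a median of 27.5 bp from the summit. The extended 8-mer ACAGTGGG was present at the peaks of rank 2270 in tara, 2868 in osa and 1002 in kis. The other 8-mer, CACTGTGC, whose reverse complement is GC followed by the 6-mer, was present at the peaks of rank 2406 in tara, 1174 near mor and 71 in kis. Each 8-mer thus occurred at 3 of 24 peaks (12.5%), against 9.86% and 9.91% of all peaks. The 8-mers overlap the 6-mer, so these peaks are among the 9 already counted. The site of rank 345 in tara, those in trx and that at brm matched neither 8-mer.

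At these genes the 6-mer did not go with high signal. Peaks with it had a median rank of 1174 and those without it a median rank of 661. Among the highest of 4 equal groups of the list by signal, 3 of 11 member peaks (27.3%) held it, against 37.3% of all peaks there. In the second group 2 of 3 did, against 25.7% of all peaks, and in the third 2 of 6, against 22.4%. In the lowest group 2 of 4 did, against 20.6%. With so few peaks, these values only describe the genes at hand.

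The sequence GAGAG, the core bound by GAGA factor, the product of the trithorax group gene Trl, was present within 100 bp of 11 of 24 summits (45.8%), against 29.5% of all peaks and 25.8% of regions below the threshold. The most matches were found at weak peaks, with 6 at the mor peak of rank 3142, 5 at the osa peak of rank 1925 and 3 at the internal tara TSS, where overlapping matches in a repeat each count. The highest tara peak had 1 match. The DRE sequence TATCGATA was at none of the 24, against 2.25% of all peaks, and the Zelda sequence CAGGTAG at 1, the peak upstream of tara, against 1.04%. GC content within 100 bp of the summits ran from 25.9% to 58.2%, with a median of 39.8% against 38.3% over all peaks. A match is only a match of letters, and whether any factor binds there was not tested.

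**Figure D4:**
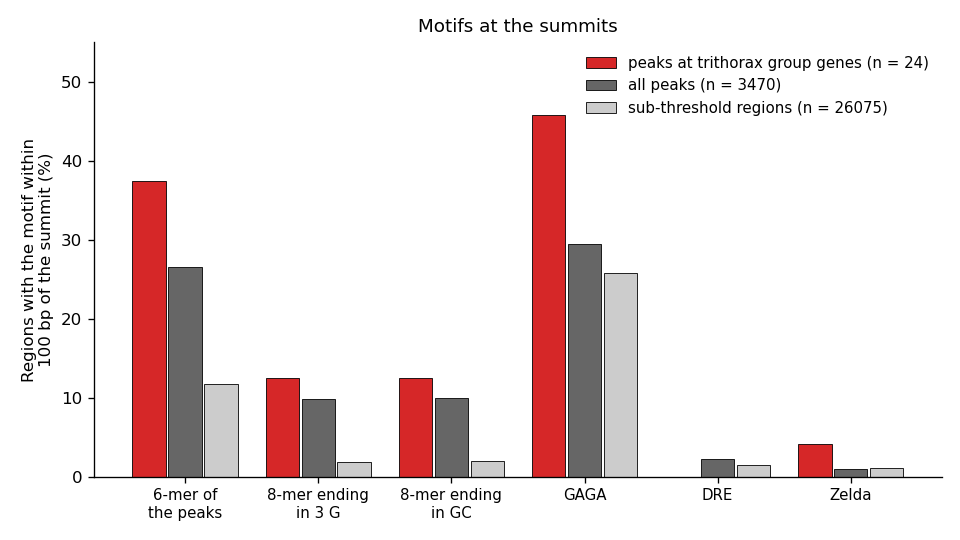
Share of regions (percent, y axis, starting at 0) that hold each of 6 sequences on either strand within 100 bp of the summit. Bars are the 24 peaks at the trithorax group genes, all peaks and the 26075 regions below the threshold. The 6-mer stands at 37.5%, 26.5% and 11.7% in these groups and GAGA at 45.8%, 29.5% and 25.8%.

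Of 33 further genes linked to the trithorax group, 14 (42.4%) had a peak by the same assignment, against 24.5% of protein-coding genes. Their median length was 6487 bp, and of protein-coding genes over 5000 and up to 10000 bp long 34.3% had a peak. These lists too were chosen with earlier results of these data known, so the share is a description. Of 7 genes of Brahma complex subunits, 1 had a peak, Bap55 (signal 181, rank 1760), whose peak was 68 bp from the TSS of CG6550. It ranked 1493 in replicate 3 and had no replicate 2 summit within 100 bp. Snr1, Bap60, Bap111, Bap170, polybromo and e(y)3 had no peak. Of 10 genes of COMPASS family subunits, 2 had a peak, trr (rank 2432) and wds (rank 2107), both past the 3′ end of the gene, while Set1, Utx, Lpt, Rbbp5, Dpy-30L1, Cfp1, Hcf and Mnn1 had none. Of 4 genes of ISWI remodeler subunits, Caf1-55 alone had one (signal 1173, rank 60), 1969 bp past its 3′ end and 125 bp from the TSS of Art3, and Iswi, E(bx) and Nurf-38 had none.

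The genes of the GAGA-associated proteins, Trl, psq and lolal, all had peaks. The highest at Trl (signal 2284, rank 7) and psq (signal 2048, rank 13) were intronic, as at tara, and that at lolal (signal 621, rank 190) was 98 bp from its TSS. Of the Mediator kinase module and cohesin genes, skd had 3 peaks, the highest of signal 846 (rank 118) in intron 3. The kto gene had 1 (rank 2037) past its 3′ end, which ranked 4642 in replicate 2 and 1653 in replicate 3. No peak was assigned to vtd or Nipped-B. The other genes, fs(1)h, nej, Kdm5, MRG15 and JIL-1, all had peaks, led by fs(1)h with a signal of 677 (rank 165). At Bap55, trr, wds, Caf1-55, kto, nej and MRG15, as at ash1 and mor, the peak lay outside the gene body and nearer to the TSS of a neighbour. These genes differ in length, with medians of 2668 bp for the Brahma complex list and 13121 bp for the GAGA-associated list, and the part of length in these counts was not tested.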

How the data were processed

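CG4707-GFP ChIP-seq regions of 2 biological replicates, sonicated to 200 to 800 bp per the labels, were used. Per the deposited file listing, the authors called regions on each replicate and on pooled reads, against a control alignment, on dm6; the caller is not given in the sources used here. Peak signal, as deposited, is a score whose unit is not described. The deposited −log10 of the q-value was not used, and other deposited columns give the summit offset. The thresholded list was checked to be the strongest 11.6% of the pooled list. Depth is unknown.

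Summits were placed on Ensembl release 115 (BDGP6, dm6 coordinates; transposable elements left out), with sequence from RefSeq's Release 6 genome. Motif matches on either strand were counted within 100 bp of summits, overlapping ones included. The members, lists and motifs were chosen with earlier results of these data known. Named genes are all members, genes that share their peaks, and, of 33 other genes, the 6 of highest signal and those with no peak; the other 8 with a peak (Bap55, trr, wds, kto, nej, Kdm5, MRG15 and JIL-1) were named after their values were seen. The symbol lid was matched as Kdm5 through a RefSeq synonym. No test was made, because the series has 1 group and the region values chose the members. The window counts and nearest distances were tested on simulated data, whereas the search used for the motif counts was not. Alternatives were other windows, a stricter threshold (the upper 50% of peaks), single replicates and 8-mers. Python 3.11.15, numpy 2.4.6, pandas 2.3.3 and matplotlib 3.10.9 were used.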

Additional observations from a re-analysis of the deposited data

How the results depend on the processing

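With the gene body alone in place of the body and 2 kb, 4 of the 8 genes had a peak (tara, trx, osa and kis) and 7 of the 33 other genes did. Thus ash1, brm and mor were counted through the flanks. The shares of all genes given above are for the body and 2 kb with the full list of peaks. None is given for the alternatives here, so their gene counts have no such share beside them. With the upper 50% of peaks by signal, 14 peaks lay at the 8 genes, 4 of them within 500 bp of a TSS and 5 with the 6-mer, which follows from the smaller list, and 7 of 8 genes still had a peak. Either 8-mer, ACAGTGGG or CACTGTGC, occurred at 3 peaks. Without replicate 2 or without replicate 3, 7 of the 8 genes had a region among as many of the single replicate's highest as there are peaks, with 25 to 26 such regions at them. The highest tara peak then ranked 2 or 3. In the other alternatives, the counts stayed within 1.5 times those in the report. No paired analysis was possible because the series has 1 group. Depth is unknown, so that weak regions missed at ash2 cannot be told apart from absent ones.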

Other observations

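The printed summits of the highest tara and trx peaks share a stretch that was noticed only after they were read. Both hold CCCACAGTC, which contains the letters ACAGT of the 6-mer but not the whole of it. Within 100 bp of the summit this sequence occurred at 2 of the 24 peaks at the trithorax group genes, at 5 of all peaks (0.144%) and at 22 of 26075 regions below the threshold (0.0844%). The shorter CCCACAGT occurred at the same number of peaks of the group, at 27 of all peaks (0.778%) and at 5 of the 100 highest, and at 0.548% of regions below the threshold. As the sequence was picked from these peaks, the values are a description without a test.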
